A study of Mus musculus with 10 samples.

Results

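The expression of 32 genes of monocytes, macrophages and lysosomal proteolysis was examined in RNA-seq libraries of bead-enriched Ly6G+ cells from mice with myocardial infarction (MI). The genes were taken from a fixed list of symbols, chosen with earlier results of these data known. All 32 were found among the 28185 genes of the deposited table. Every animal was a male C57Bl/6J mouse aged 12 to 16 weeks whose left coronary artery had been ligated 3 days earlier, so the blood groups had MI as well and no library came from an uninjured heart. MI (n = 3) and Blood (n = 2) are the groups without mesenchymal stromal cells (MSC). MI + MSC (n = 3) and Blood + MSC (n = 2) came from mice given syngeneic bone marrow MSC under the skin at 3 sites after the ligation. Cardiac cells were obtained by digesting the infarcted left ventricle, and blood was drawn by cardiac puncture. In both cases the cells were collected on anti-Ly6G magnetic beads, a step that enriches neutrophils without removing every other cell. The study asked how MSC placed at a distance act on neutrophils of the heart and the blood. The study's methods name the single animal as the experimental unit unless stated otherwise, while GEO's labels number the libraries without naming animals, and 2 libraries of each blood group were analysed here. The p-values measure the spread between these libraries.

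Macrophages and monocytes take up dying cells and degrade them in lysosomes. Tissue macrophages make the 3 chains of complement C1q (C1qa, C1qb and C1qc), which bind apoptotic cells and start the classical complement pathway. Cathepsins and legumain are the proteases of the lysosome. Several of the 32 genes mark macrophages among leukocytes, whereas others, such as Lyz2 and the cathepsins, are also transcribed by neutrophils. After infarction, neutrophils enter the heart first and monocytes follow, becoming macrophages that clear dead cardiomyocytes and neutrophils. In bulk RNA, fewer cells of a type and less RNA per cell cannot be told apart.

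The 3 C1q genes lie next to each other on chromosome 4 and were read at similar ratios, so the 250 bases before each gene's start are shown for these genes, 5′ to 3′ on the gene's strand (the minus strand) in GRCm39, from the genome and the GENCODE annotation. Capitals mark the single match to the PU.1 motif searched (GAGGAAGT, on either strand), here read on the opposite strand.
C1qa, chr4:136626162-136626411: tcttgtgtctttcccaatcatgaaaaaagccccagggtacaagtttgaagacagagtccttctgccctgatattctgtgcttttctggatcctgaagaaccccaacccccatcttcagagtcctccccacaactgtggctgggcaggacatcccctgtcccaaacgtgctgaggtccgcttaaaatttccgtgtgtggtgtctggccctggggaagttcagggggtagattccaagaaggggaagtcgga
C1qb, chr4:136613512-136613761: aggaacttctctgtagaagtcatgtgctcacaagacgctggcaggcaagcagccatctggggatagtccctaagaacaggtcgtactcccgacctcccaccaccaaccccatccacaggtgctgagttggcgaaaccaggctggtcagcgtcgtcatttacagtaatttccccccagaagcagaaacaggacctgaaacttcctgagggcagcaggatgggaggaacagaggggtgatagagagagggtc
C1qc, chr4:136620377-136620626: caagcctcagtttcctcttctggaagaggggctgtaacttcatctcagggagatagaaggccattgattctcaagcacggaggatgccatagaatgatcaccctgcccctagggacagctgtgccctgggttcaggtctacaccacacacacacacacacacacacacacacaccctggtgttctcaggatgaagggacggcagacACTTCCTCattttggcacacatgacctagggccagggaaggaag
PU.1 is a transcription factor of myeloid cells. Its motif was present in these windows of 2 of the 32 genes (6.25%), C1qc, 44 bases before the start, and Mgl2, 22 bases before it. Among 21770 coding genes, 2.08% held it. The CLEAR motif of lysosomal genes (TCACGTGA, which reads the same on both strands) was found in 0 of the 32 windows and in 0.753% of all. Only exact matches to the full motif were sought, and with so low a share over all genes, 0 of 32 says little about these genes. A match describes the letters and not a bound site.

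The libraries differed widely in depth. Reads on genes ranged from 148594 in MI 13 to 8602711 in Blood + MSC 24, and a single read equalled 8.40 normalized counts in MI 13, 7.07 in Blood 21 and 0.168 to 2.30 elsewhere. Normalized counts are reads divided by the size factor of the library. The 32 genes took 0.922% to 3.25% of the reads of a library. Their summed level was 11514 normalized counts in MI 13, 27468 to 43615 in the other 5 cardiac libraries and 24788 to 39672 in blood. In MI 13, 26 of the 32 genes had more than 3 reads, against 28 in Blood 21 and 32 in each of the others. Blood 21 also stood apart in platelet transcripts, whose 5 markers summed to 23938 normalized counts against 564 to 1048 in the other blood libraries.

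Markers of the sorted cell and of its neighbours moved with the tissue, and in blood the neutrophil markers also differed between the groups with and without MSC. Ly6g, which encodes the antigen on the beads, was read at 16.8, 26.9 and 18 normalized counts in MI libraries, at 6.76, 13.8 and 4.75 with MSC, at 198 and 645 in the Blood pair and at 57.0 and 41.2 in the Blood + MSC pair. In every cardiac library it lay below every blood library, and the 16.8 of MI 13 stood for 2 reads. The 14 neutrophil markers summed to 2723 to 15096 normalized counts in cardiac and 17710.0 to 54838 in blood libraries, and 12 of the 14 fell in cardiac libraries. Cardiomyocyte, endothelial and mural markers were higher in the heart in 6 of 6, 6 of 6 and 4 of 5 genes. Myh6, a myosin of cardiomyocytes, ran from 402 to 3901 normalized counts in cardiac libraries and was at most 2.36 in blood. Csf1r, the receptor that maintains macrophages, was read in all 10 libraries, at 387 to 718 in the heart and 480.4 to 1163 in blood. The labels call all libraries neutrophils, so the 32 genes were read from a mixture in which these other markers were present. Their part in the differences below was not tested, and their values are given beside the results they moved with.

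Per kilobase of transcript, Lyz2 (lysozyme), C1qa and Ctsd led the cardiac libraries with means of 2034, 1247 and 1236 normalized counts, followed by Apoe (1162) and Lgals3 (1160.3). In blood, Tyrobp, an adaptor of activating myeloid receptors, led with 3249.5, before Lyz2 (2819), C1qa (1406), Ctsd (1142) and Ctss (1078). C1qa was among the 3 highest of the 32 genes per kilobase in both tissues. These ranks depend on the transcript length used. C1qa and C1qb had cardiac means of 1355 and 1416 normalized counts, but canonical transcripts of 1087 and 2532 bases, and ranked 2 and 11 in the heart.

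**Figure D1:**
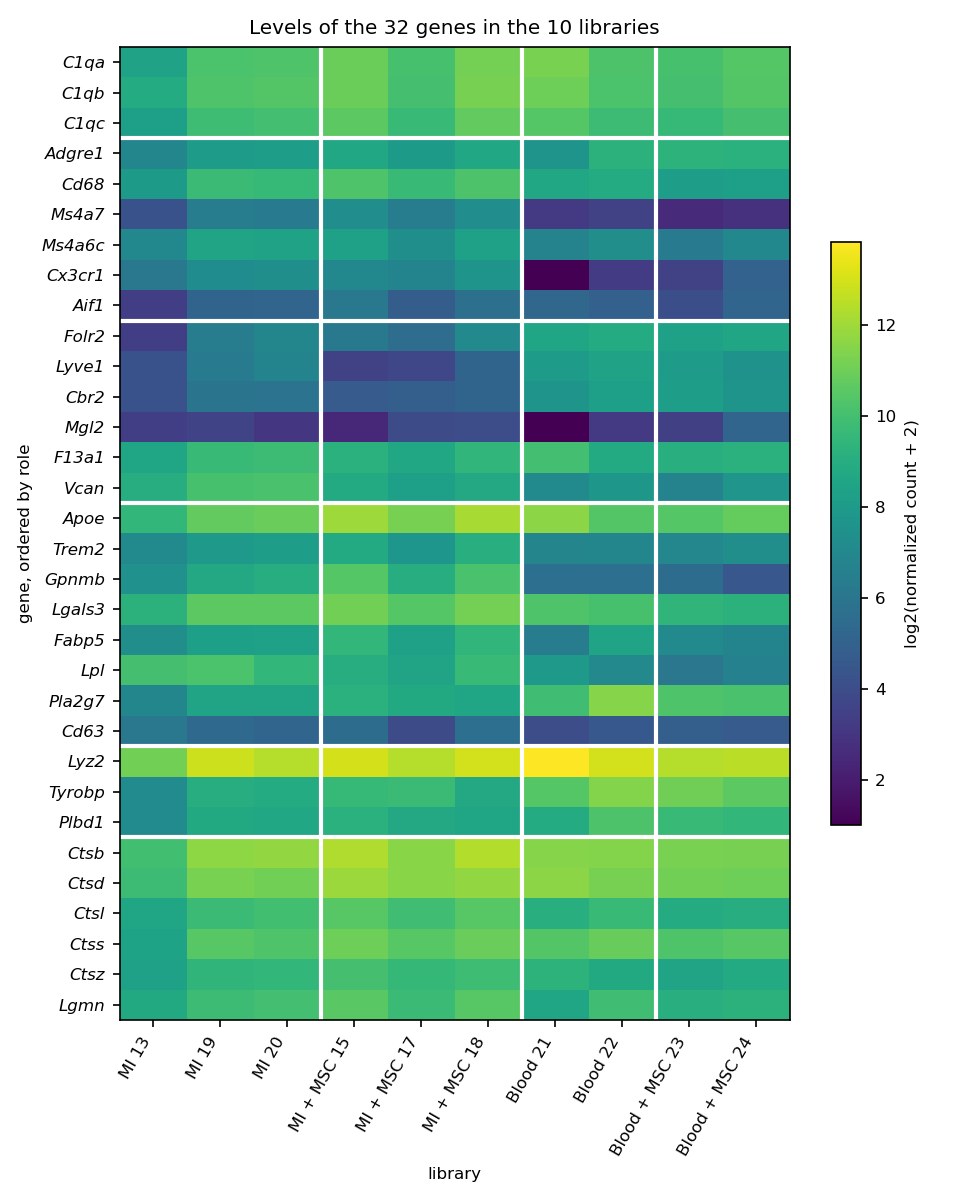
Level of each of the 32 genes (rows, ordered by role, white lines between roles) in each of the 10 libraries (columns, white lines between groups), as log2(normalized count + 2) in color. MI 13 holds the lowest cardiac level of all C1q chains and proteases, and Cx3cr1 and Mgl2 are at 0 reads in Blood 21.

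Between tissues, the 32 genes did not move as a block. Differences were tested with limma over 11549 genes, and a gene was called at a Benjamini-Hochberg adjusted p under 0.05 when its log2 fold change was also 0.5 or more in size. Over the 6 cardiac and 4 blood libraries, 9 of the 32 genes were higher in the heart, where 25.3% of all tested genes were. Another 6 of the 32 were lower, against 18.1% of all tested genes, and 17 did not pass, where 43.4% of all tested genes were called in either direction. The members' median log2 fold change was 0.22 and that of all tested genes 0.12. Across all genes, 2918 were higher and 2090 lower, a split that became 1275 and 2239 with TMM scaling and 4114 and 1377 with library size scaling, as these moved the median of all genes by -0.49 and 0.33. Within 2 of the 6 roles, some genes were higher and others lower. Cardiac and blood libraries did not overlap at all for 10 of the 32 genes, of which Ms4a7, Cx3cr1, Vcan, Gpnmb and Lpl were higher (19.1% of all tested genes were) and Folr2, Lyve1, Cbr2, Pla2g7 and Tyrobp lower (14%). These 10 were also the ones called in the same direction in all 19 alternative analyses, both scalings included.

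**Figure D2:**
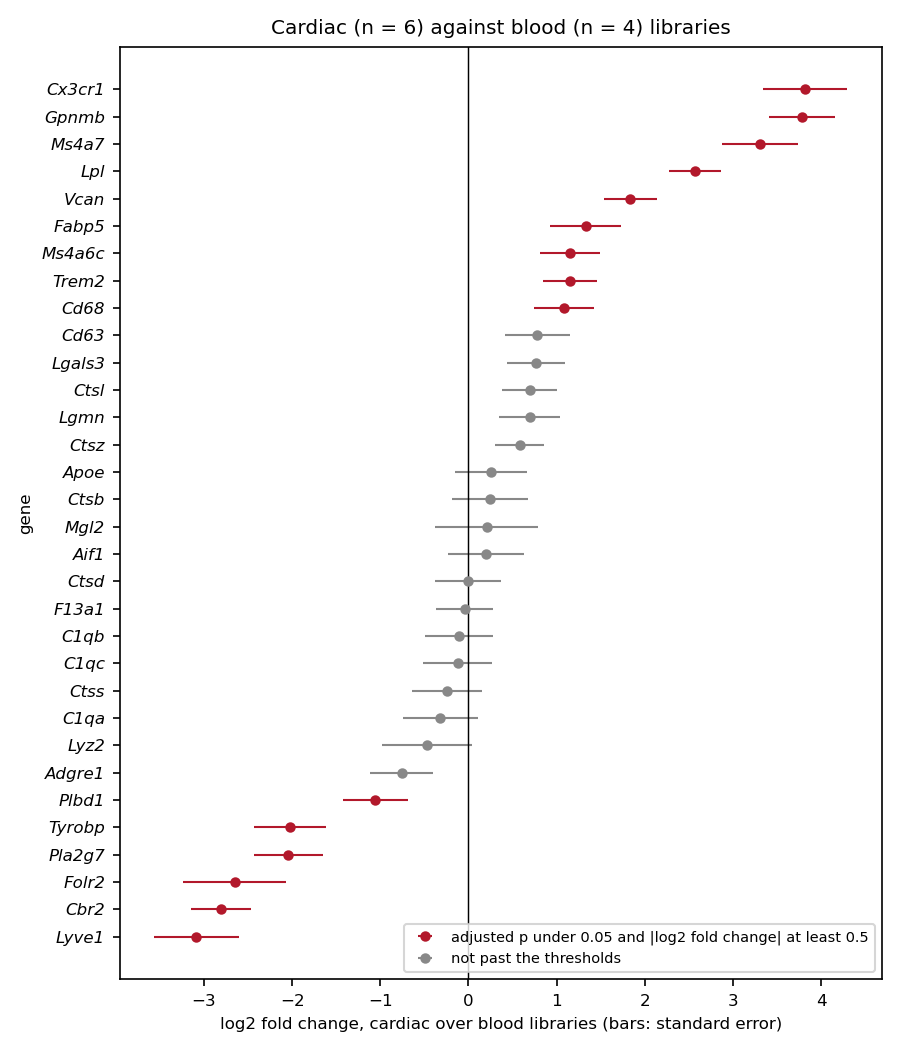
Log2 fold change of cardiac over blood libraries for each of the 32 genes, as points with standard errors, in red where the gene was called. Cx3cr1 (3.82) and Gpnmb (3.78) are at the upper end and Lyve1 (-3.08) at the lower end, while the C1q chains and the cathepsins lie between -0.32 and 0.69.

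All C1q chains were read in every library of both tissues, and no difference between the tissues passed the test. C1qa had 336, 1177 and 1247 normalized counts in MI libraries, 2005, 1104 and 2263 in those of MI + MSC, 2438 and 1218 in the Blood pair, and 1079 and 1379 in the Blood + MSC pair. C1qb had 471, 1276 and 1353 in MI libraries, 1977, 1061 and 2356 in those of MI + MSC, 2042 and 1181 in the Blood pair, and 1067 and 1330.2 in the Blood + MSC pair. C1qc had 303, 913 and 1028 in MI libraries, 1538, 815 and 1748 in those of MI + MSC, 1385 and 897 in the Blood pair, and 766 and 1073 in the Blood + MSC pair. Cardiac and blood libraries overlapped for each chain. Log2 fold changes were -0.32 ± 0.43 (SE), -0.11 ± 0.39 and -0.12 ± 0.39, with adjusted p of 0.569, 0.836 and 0.82, and the signs for C1qb and C1qc turned positive with library size scaling. Without the shallowest library of each tissue (MI 13 and Blood 21) all 3 were positive, at 0.24 to 0.33. The ratio of C1qb to C1qa was 0.96 to 1.08 in 5 cardiac libraries, 1.40 in MI 13, where C1qa had 40 reads, and 0.838 to 0.989 in blood. That of C1qc to C1qa was 0.738 to 0.900 and 0.568 to 0.778.

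Among surface and identity genes, 4 of 6 were higher in the heart, where 25.3% of all tested genes were. Ms4a7, a tetraspan membrane protein of macrophages, had 16.8, 85.5 and 76.7 normalized counts in MI libraries, 156, 80.4 and 152 in those of MI + MSC, 7.07 and 9.75 in the Blood pair, and 3.68 and 5.05 in the Blood + MSC pair. The lowest cardiac value, of 2 reads in MI 13, was above the highest blood value. Ms4a7 in Blood 21 rested on 1 read, and 3 reads there equal 21.2 normalized counts, more than the 16.8 of MI 13. Its means were 94.6 ± 52.4 (SD, n = 6) and 6.38 ± 2.64 (SD, n = 4), 14.8-fold apart (log2 fold change 3.31 ± 0.43, adjusted p = 0.00017). Cx3cr1, the fractalkine receptor of monocytes and resident macrophages, had 67.2, 148 and 164 in MI libraries and 126, 108 and 198 in those of MI + MSC. In blood it had 0 and 7.80 in the Blood pair, and 9.19 and 30.8 in the Blood + MSC pair, so the tissues did not overlap here either. The means, 135 ± 45.6 and 11.9 ± 13.2, were 11.3-fold apart (log2 fold change 3.82 ± 0.48, adjusted p = 0.00014). Cd68, a lysosomal membrane glycoprotein of phagocytes, and Ms4a6c were 2.33-fold and 2.32-fold higher in the heart (adjusted p = 0.0236 and 0.0185), with libraries that overlapped. Neither was called with TMM scaling. Adgre1, which encodes the F4/80 antigen of macrophages, ran from 118 to 417 in the heart and from 198 to 627 in blood and was not called (log2 fold change -0.75 ± 0.36, adjusted p = 0.106), although edgeR and DESeq2 on the recovered reads called it lower (adjusted p = 0.0394 and 0.0372). Aif1, an actin-binding protein of macrophages, was low throughout, at 8.40 to 69.6 and 15.2 to 35.3.

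Among 6 products of resident and alternatively activated macrophages, 3 were lower in the heart (Folr2, Lyve1 and Cbr2), 1 was higher (Vcan) and 2 were not called (F13a1 and Mgl2). Of all tested genes, 18.1% were lower and 25.3% higher. Folr2, a folate receptor of resident macrophages, had 8.40, 85.5 and 117 normalized counts in MI libraries, 71.0, 45.9 and 132 in those of MI + MSC, 367 and 478 in the Blood pair, and 318 and 377 in the Blood + MSC pair. Every blood library stood above every cardiac one, and the blood mean was 5.02-fold the cardiac mean (log2 fold change -2.65 ± 0.58, adjusted p = 0.00419). Lyve1, a hyaluronan receptor of resident macrophages and lymphatic endothelium, had 16.8, 79.8 and 107 in MI libraries, 9.46, 11.5 and 33.2 in those of MI + MSC, 276 and 336 in the Blood pair, and 268 and 190.3 in the Blood + MSC pair. It was 6.23-fold higher in blood (-3.08 ± 0.48, adjusted p = 0.00054). The 6 endothelial markers were higher in the heart over all libraries. Pecam1 was at 586 in Blood 21, against 120 to 521 in cardiac libraries and 23.4 to 50.7 in the other blood libraries. Other endothelial markers were low in Blood 21, with Cdh5 at 7.07 (120 to 513 in cardiac libraries) and Kdr at 0 (64.2 to 354). The part of endothelial RNA in Lyve1 was not tested. Cbr2, a carbonyl reductase, had 16.8, 59.6 and 56.6 in MI libraries, 23.7, 27.6 and 32.5 in those of MI + MSC, 198 and 305 in the Blood pair, and 282 and 199.6 in the Blood + MSC pair. Its blood mean was 6.81-fold higher (-2.81 ± 0.34, adjusted p = 0.00011). The values of Folr2, Lyve1 and Cbr2 in MI 13 rest on 1, 2 and 2 reads. Without MI 13 and Blood 21, the log2 fold changes were -2.20, -2.77 and -2.68.

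Vcan, the proteoglycan versican of monocytes and stromal cells, was 3.89-fold higher in the heart. It had 513, 1081 and 1114 in MI libraries, 462, 305 and 429 in those of MI + MSC, 141 and 217 in the Blood pair, and 106 and 205 in the Blood + MSC pair (log2 fold change 1.83 ± 0.30, adjusted p = 0.00076). The 6 fibroblast markers summed to 893 to 1536 in the heart and 498 to 1003 in blood. F13a1, the A chain of coagulation factor XIII, ran from 378 to 893 in the heart and from 458 to 1003 in blood (adjusted p = 0.925). Its highest value was in Blood 21, the library with the platelet transcripts, and platelets also hold this chain. Mgl2, a galactose-type lectin, was low, with 0 to 21 reads in 8 of the libraries, and reached 34.7 normalized counts in Blood + MSC 24 (206 reads).

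Lipid handling and phagocyte activation genes gave 4 higher and 1 lower of 8, against 25.3% and 18.1% of all tested genes. Gpnmb, a glycoprotein of lipid-laden macrophages, had 176, 428 and 501 normalized counts in MI libraries, 1382, 509.7 and 1134 in those of MI + MSC, 49.5 and 48.7 in the Blood pair, and 44.4 and 20.7 in the Blood + MSC pair. The lowest cardiac library was well above the highest blood library. The means of 689 ± 464 (SD, n = 6) and 40.8 ± 13.6 (SD, n = 4) were 16.9-fold apart, which is the largest ratio of means among the 32 genes (log2 fold change 3.78 ± 0.37, adjusted p = 2.8e-05). Trem2, a lipid receptor that signals through the product of Tyrobp, was 2.46-fold higher (adjusted p = 0.0113), with 134 to 536 against 113 to 159. Fabp5, a fatty acid carrier, was 2.44-fold higher (adjusted p = 0.0203), with overlap through the 359 of Blood 22. Calls for both were lost with TMM scaling, at log2 fold changes of 0.73 and 0.91.

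Lpl, lipoprotein lipase, is made by cardiomyocytes and adipocytes as well as macrophages. It had 1067, 1178 and 708 in MI libraries, 514, 356 and 807 in those of MI + MSC, 233 and 131 in the Blood pair, and 65.1 and 98.4 in the Blood + MSC pair. The cardiac mean was 5.85-fold higher (2.57 ± 0.29, adjusted p = 7.8e-05). Cardiomyocyte markers moved with it, summing to 3009 to 23359.6 in the heart and 10.4 to 63.6 in blood. The sum was highest in MI 19, as was Lpl, but lowest in MI + MSC 15, whereas Lpl was lowest in MI + MSC 17. The part of cardiomyocyte RNA in this difference was not tested.

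Pla2g7, a phospholipase of lipoproteins, was the lower member of the role. It had 118, 364 and 364 in MI libraries, 584, 439 and 385 in those of MI + MSC, 947 and 2846 in the Blood pair, and 1278 and 1147 in the Blood + MSC pair. All blood libraries were above all cardiac ones, 4.14-fold in the means (log2 fold change -2.04 ± 0.39, adjusted p = 0.00194). Apoe (apolipoprotein E), Lgals3 (galectin-3) and Cd63 (a tetraspanin of late endosomes and granules) had log2 fold changes of 0.26, 0.76 and 0.78 and did not pass (adjusted p = 0.63, 0.082 and 0.107). For Apoe the sign turned negative with TMM scaling.

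All 3 genes shared by myeloid cells had lower fitted values in the heart, and 2 of them were called, where 18.1% of all tested genes were called lower. Tyrobp had 143, 516 and 475 normalized counts in MI libraries, 773, 852 and 433 in those of MI + MSC, 1378 and 2841 in the Blood pair, and 2112 and 1559.9 in the Blood + MSC pair. Its blood mean was 3.71-fold higher, with no overlap (-2.02 ± 0.41, adjusted p = 0.00246). Plbd1, a phospholipase of granules and lysosomes, was 2.03-fold higher in blood (adjusted p = 0.037), with overlap through the 473 of Blood 21, and the call was lost with both other scalings, at a log2 fold change of -1.47 with TMM, which is larger in size than the -1.06 of the deposited scaling, and -0.75 with library size. Lyz2, the most abundant of the 3, ran from 2177 to 8234 in cardiac and from 5423 to 14569 in blood libraries (-0.47 ± 0.51, adjusted p = 0.477). Counts of Lyz2, Mgl2, Ms4a6c and Fabp5 may share reads with close paralogs or processed copies.

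**Figure D3:**
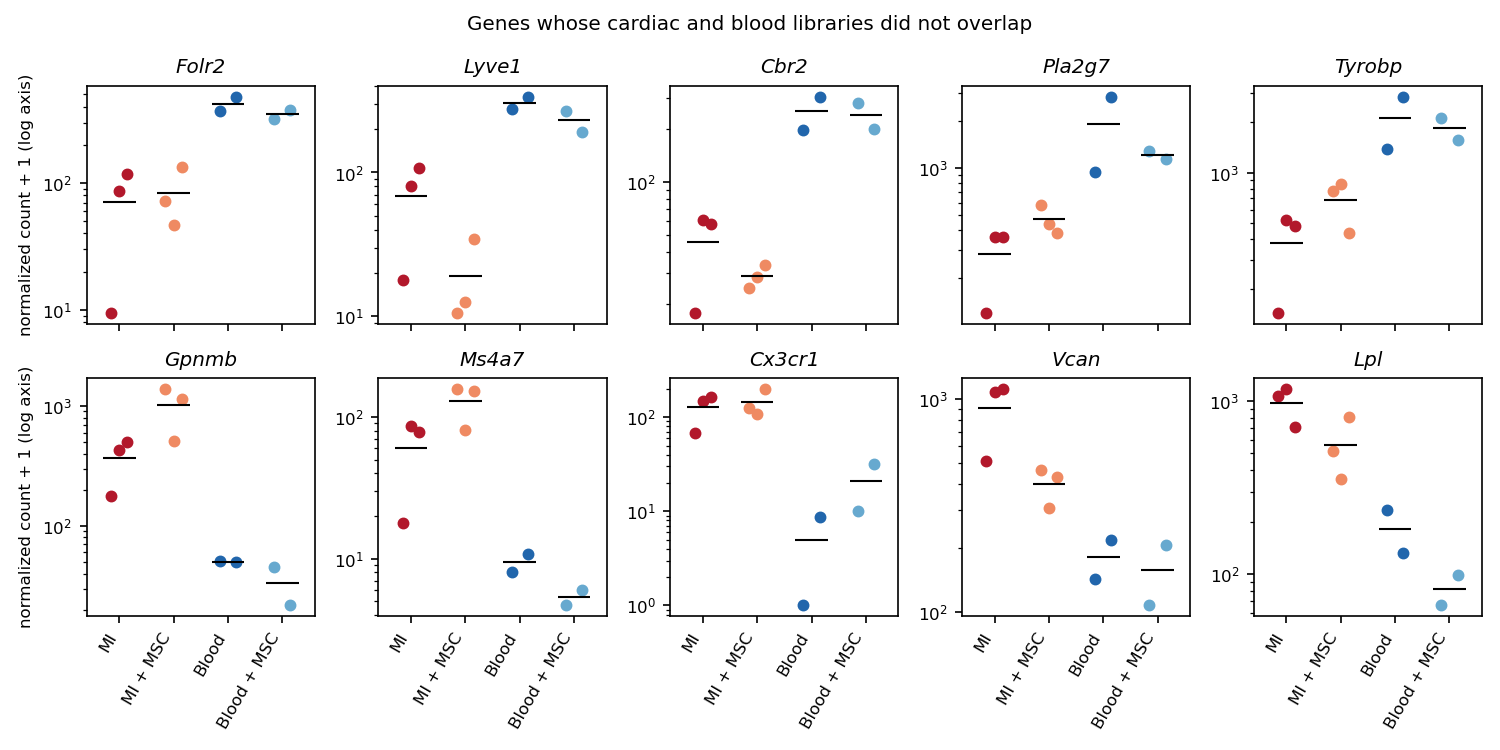
Normalized count plus 1 on a log axis for the 10 genes whose cardiac and blood libraries did not overlap, with a point for each library and a bar at the mean of each group (MI and MI + MSC, n = 3; Blood and Blood + MSC, n = 2). The upper row holds the genes lower in the heart and the lower row those higher in the heart.

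Lysosomal proteases passed in neither direction. Ctsb (cathepsin B) had 992, 3224 and 3446 normalized counts in MI libraries, 5062, 3026 and 5158 in those of MI + MSC, 2854 and 2828 in the Blood pair, and 2418 and 2373 in the Blood + MSC pair. The blood libraries lay close together and inside the cardiac range. Ctsd, the aspartic protease cathepsin D, had 874, 2428 and 2230.2 in MI libraries, 3779.8, 2957 and 3500.2 in those of MI + MSC, 3130.0 and 2368 in the Blood pair, and 2189.9 and 2024 in the Blood + MSC pair. The log2 fold changes of Ctsb, Ctsd and Ctss (cathepsin S, which processes the invariant chain of MHC class II) were 0.24 ± 0.43, -0.0039 ± 0.37 and -0.24 ± 0.40. Those of Ctsl, Ctsz and Lgmn (legumain, an asparaginyl endopeptidase) were 0.69 ± 0.31, 0.58 ± 0.28 and 0.69 ± 0.35. Adjusted p ranged from 0.0898 for Ctsl to 0.994 for Ctsd. DESeq2 on the recovered reads, library size scaling and leaving out MI 13 each called Ctsl, Ctsz and Lgmn higher in the heart, while edgeR called none of them.

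Within the summed protease counts, Ctsb and Ctsd held the largest shares in both tissues, and the shares of the others shifted. Ctsb gave 29.4% to 35.9% of the summed protease counts in cardiac libraries and 30.4% to 33.4% in blood. Ctsd gave 23.2% to 29.6% and 25.5% to 35.3%. Ctss took 10.2% to 15.2% in the heart and 15.1% to 19.9% in blood, and Ctsl 9.02% to 11.5% and 6.06% to 9.06%, so the tissues barely overlapped for either. Medians were 7.25% in the heart and 5.59% in blood for Ctsz, and 10.1% and 7.92% for Lgmn. Differences in these shares were not tested. These shares are of counts and not of counts per length.

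Genes of the same pathways from lists outside the 32 were counted in the same fit, in which 25.3% of all tested genes were called higher in the heart and 18.1% lower. Of 20 other mononuclear phagocyte genes, 18 were tested, 8 were higher in the heart and 2 lower. The most abundant was Spp1 (osteopontin), with 2488 to 7884 normalized counts in cardiac and 323 to 657 in blood libraries (log2 fold change 3.62 ± 0.33, adjusted p = 2.0e-05). Cd14, a coreceptor for lipopolysaccharide, was also called (0.99 ± 0.36, adjusted p = 0.0418), and the chemokine receptor Ccr2 was not. The higher genes also included C3ar1, Fcgr1, Irf8, Klf4 and Stab1, and the lower ones were Cd163 and Clec10a, named here after their values were seen. Of 33 other lysosomal genes, 32 were tested, 4 were higher and 3 lower, with a median log2 fold change of -0.01. Psap, Lamp1 and Ctsc, the 3 most abundant of these, were not called. Among cathepsin inhibitors 6 were tested, 1 of which was higher (Cstb, 0.89 ± 0.25, adjusted p = 0.014) and 4 lower, all members of the stefin A cluster, including Stfa2l1 (-2.64 ± 0.54, adjusted p = 0.00274). The stefin A genes are near-identical copies, so their separate counts are uncertain.

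The summed levels of the members were set beside those of neutrophil markers. The 11 members listed here as macrophage-restricted were the C1q chains, Adgre1, Ms4a7, Trem2, Gpnmb, Folr2, Lyve1, Cbr2 and Mgl2. Whether other leukocytes in these libraries expressed them was not tested. They summed to 1605 to 8812 normalized counts in cardiac and 4584 to 7072 in blood libraries. For the 9 members that neutrophils also express (Lyz2, Tyrobp, Plbd1, Lgals3, Cd63, Ctsb, Ctsd, Ctss and Ctsz) the sums were 5673 to 23786 and 14958 to 25662. The ratio of the first sum to the second was 0.255 to 0.39 in cardiac and 0.252 to 0.358 in blood libraries, which overlap almost fully. The C1q chains held 1109 to 6368 of the first sum in the heart and 2911 to 5864 in blood. Lyz2 held 2177 to 8234 and 5423 to 14569 of the second. Within the 11 genes, Gpnmb, Ms4a7 and Trem2 were called higher in the heart and Folr2, Lyve1 and Cbr2 lower, so similar sums do not mean unchanged genes. Set against the 14 neutrophil markers, the macrophage-restricted sum was 0.590, 0.544 and 0.782 of it in MI libraries and 0.891, 0.274 and 2.79 in MI + MSC. In blood that ratio was 0.154 and 0.0949 in the Blood pair, and 0.180 and 0.302 in the Blood + MSC pair. MI + MSC 17, the library with the most neutrophil transcripts in the heart, was the only cardiac library inside the blood range. The ratio of the shared sum to the neutrophil markers was 1.07 to 7.16 in the heart and 0.377 to 0.845 in blood. Both ratios had higher medians in the heart (0.686 against 0.167 for the restricted and 2.24 against 0.580 for the shared genes), and their cause was not tested. The 20 other mononuclear phagocyte genes summed to 6530 to 17453 in cardiac and 4900 to 5307 in blood libraries, which did not overlap. Of this sum, Spp1 alone held 2488 to 7884 in the heart and 323 to 657 in blood. The sum was 0.76 to 5.53 of the neutrophil markers in the heart and 0.097 to 0.297 in blood. Dendritic cell markers were read as well, summing to 1213 to 3457 in cardiac and 827 to 3533 in blood libraries.

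**Figure D4:**
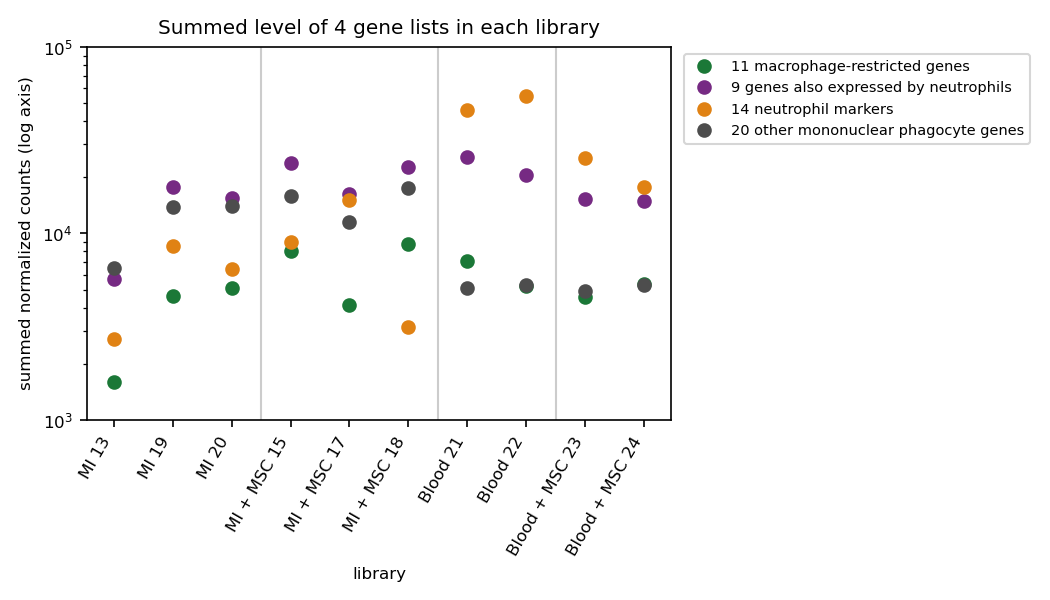
Summed normalized counts on a log axis for 4 gene lists in each library, with gray lines between groups. Neutrophil markers lie between 17710.0 and 54838 in blood and between 2723 and 15096 in the heart, while the 11 genes listed as macrophage-restricted reach 1605 to 8812 in the heart and 4584 to 7072 in blood. The 20 other mononuclear phagocyte genes reach 6530 to 17453 in the heart and 4900 to 5307 in blood.

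The tissue comparison was repeated within each treatment. In MI against Blood, 5 of the 32 genes were higher (21.2% of all tested genes) and 5 lower (13.5%), the same 10 genes that did not overlap over all libraries. In MI + MSC against Blood + MSC, 8 were higher (8.23% of all tested genes) and 2 lower (5.85%). The higher genes were Cd68, Ms4a7, Cx3cr1, Vcan, Gpnmb, Lgals3, Fabp5 and Lpl, and the lower genes were Lyve1 and Cbr2. Folr2, Pla2g7 and Tyrobp had log2 fold changes of -2.16, -1.39 and -1.46 there and adjusted p of 0.101, 0.116 and 0.109. Of the 10 genes called in each comparison, 6 in MI against Blood and 2 in MI + MSC against Blood + MSC, Gpnmb and Ms4a7, were called in every alternative. Libraries did not overlap for 7 higher and 7 lower genes in the former (31.6% and 23.6% of all tested genes) and for 16 and 7 in the latter (33.8% and 29.7%). Vcan was close to the limit in MI + MSC against Blood + MSC (1.40 ± 0.43, adjusted p = 0.0494).

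With MSC in the heart, none of the 32 genes was called by limma, nor was any other gene (0%). At an unadjusted p under 0.05 there were 9 of the 32 and 925 of all 11549 genes. Of the 32, 26 had positive log2 fold changes, with a median of 0.78 against -0.01 for all tested genes, and the sign of the median was the same with both other scalings (1.06 and 0.65). Much of this size came with MI 13, the shallowest library, which had the lowest level among cardiac libraries for all 3 C1q chains and all 6 proteases. Without it, 23 of the 32 were positive and the median was 0.37. Groups did not overlap for 6 genes higher with MSC (Apoe, Gpnmb, Fabp5, Pla2g7, Ctsd and Ctsz, against 7.05% of all tested genes) and for 1 lower gene (Vcan, against 9.6%). With TMM scaling the groups stayed apart for Ctsd alone, and with library size scaling for Apoe, Pla2g7, Ctsd and Vcan. The 32 other lysosomal genes tested had a median of 0.53, with 31 positive and 0 called, and the 18 other mononuclear phagocyte genes had a median of -0.05, with 0 called.

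The values of these genes were as follows. Apoe had 714, 1713 and 1929 normalized counts in MI libraries and 4013, 2362 and 4479.8 in those of MI + MSC (log2 fold change 1.39 ± 0.51, adjusted p = 0.587). Gpnmb, with the values given above, differed by 1.46 ± 0.47 (adjusted p = 0.53), and by 1.0 without MI 13. For Fabp5 the counts were 159.7, 304 and 324 in MI libraries and 719, 326 and 696 in those of MI + MSC, so the groups were separated by the small step between 324 and 326. Vcan, with 513 to 1114 in MI and 305 to 462 in MI + MSC, had a log2 fold change of -1.11 ± 0.38 (adjusted p = 0.545). Lyve1 fell in DESeq2 on the recovered reads (adjusted p = 0.0304), the single call among the 32 genes by any tool in this comparison, where DESeq2 called 21 of all 11549 genes higher and 58 lower and edgeR called 0. In limma it was -1.65 ± 0.60 (adjusted p = 0.585), and -2.43 without MI 13 (adjusted p = 0.706). Beside Lyve1, the 6 endothelial markers summed to 1614 to 1758 in MI and 378 to 720.0 in MI + MSC, and the part of endothelial RNA in it was not tested. Lpl was at -0.86 ± 0.37 (adjusted p = 0.618), beside cardiomyocyte sums of 7841 to 23359.6 in MI and 3009 to 12172 in MI + MSC.

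In blood, again none of the 32 genes was called with MSC, nor any other (0%), and edgeR called 0. DESeq2 called 4 genes higher and 175 lower, none of them among the 32. At an unadjusted p under 0.05 there were 3 of the 32 (Cx3cr1, Mgl2 and Lpl) and 848 of all genes. Log2 fold changes were negative for 26 of the 32 genes, with a median of -0.37 against 0.11 for all tested genes. With TMM scaling 27 were positive and the median was 0.30, against 0.72 for all genes, so the sign depends on the scaling while the members' median stayed under that of all genes. Groups did not overlap for 4 higher genes (Cx3cr1, Mgl2, Trem2 and Cd63, against 21% of all tested genes) and 10 lower ones (15.4%), which with 2 libraries a side is a weak separation. These became 11 and 2 with TMM and 5 and 5 with library size scaling. Cx3cr1 had 0 and 7.80 normalized counts in Blood and 9.19 and 30.8 in Blood + MSC (2.11 ± 0.74, adjusted p = 0.672). Mgl2 had 0 and 7.15, and 8.93 and 34.7 (2.23 ± 0.91, adjusted p = 0.672). Both zeros are from Blood 21, where 0 reads still allow 21.2 normalized counts (a limit of 3 reads), more than Blood + MSC 23 held of either gene. Leaving out Blood 22 made both pass (adjusted p = 0.0137 and 0.0492), with that zero as the only Blood value. In that fit 1107 of all 11744 genes were called higher and 397 lower, against 0 with that library. Lpl had 233 and 131 in the Blood pair, and 65.1 and 98.4 in the Blood + MSC pair (-1.11 ± 0.45, adjusted p = 0.672). Beside these values, the neutrophil markers summed to 45840 to 54838 in Blood and 17710 to 25464 in Blood + MSC under the deposited scaling. Ly6g had means of 421 and 49.1. The part of neutrophil RNA in the members' differences was not tested.

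The difference between the MSC contrasts of heart and blood was tested as an interaction. It was called for none of the 32 genes by limma (4 at an unadjusted p under 0.05, and 838 of all genes), with a smallest adjusted p of 0.63. edgeR called 0 of all genes, and DESeq2 called 20 (18 higher and 2 lower), none of them among the 32. The values for the C1q chains were 0.87 to 1.11 in the heart and -0.50 to -0.30 in blood, and for the proteases 0.74 to 1.04 and -0.46 to -0.05, where all 9 of the blood values turned positive with TMM scaling.

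**Figure D5:**
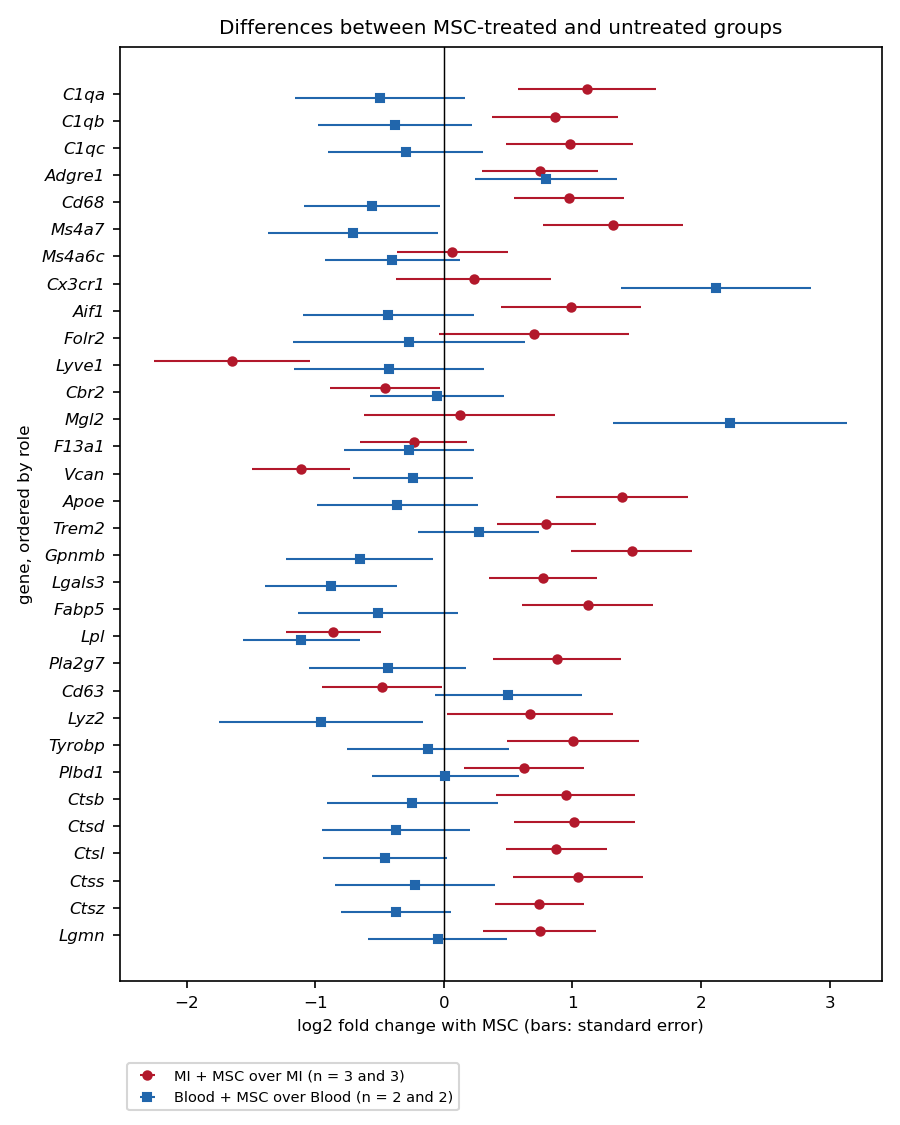
Log2 fold change with MSC for each of the 32 genes in the heart (red circles, MI + MSC over MI) and in blood (blue squares, Blood + MSC over Blood), with standard errors. In the heart 26 of 32 points are positive and in blood 26 of 32 are negative (5 of 32 with TMM scaling), and none was called.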

How the data were processed

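RNA-seq libraries of 6 cardiac and 4 blood samples of Ly6G+ cells were analysed, grouped by their GEO labels. Per the labels and the study's methods, the authors trimmed reads with Trimmomatic, removed duplicates with Picard, mapped to GRCm39 with STAR, counted by strand with featureCounts and left out mitochondrial reads. The deposited values are signal values, read counts that DESeq2's size factors had scaled. A second table, called raw counts, was equal to it in all 281850 values and was not used. Duplicate removal without molecular identifiers lowers the counts of abundant genes, and how reads matching several genes were treated is not given in the sources used here.

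Reads were recovered by dividing by the value of a single read, and 100% of values came out whole within 0.01. limma (3.58.1, intensity trend) was fitted to log2(normalized count + 2), with 1 mean per group over all 10 libraries, keeping genes whose mean reached 10 normalized counts (11549, with all 32 members). Fold changes on this scale understate those of low genes, and ratios of means are given apart. The Benjamini-Hochberg adjustment was over all tested genes. Alternatives were other pseudocounts, filters and scalings, edgeR (4.0.16) and DESeq2 (1.42.0) on the recovered reads, only the groups compared, and leaving out libraries. The model was tested on simulated data. R 4.3.3 and Python 3.11.15 were used. The members, gene lists and tests were chosen with earlier results of these data known. All 32 members are described, and other genes are named when they check the sort or tissue or are among the 3 most abundant of a list, and a few called genes of a list were named after their values were seen. Precision is limited by depth. Standard errors are those of limma, from a spread between libraries shared by the 4 groups and drawn toward a trend with intensity over all genes. SDs are between all libraries of a tissue, with and without MSC together. The limits given for 0 reads cover counting error only. Lengths per kilobase are those of the canonical transcripts of GENCODE, whose annotation held 27906 of the 28185 gene identifiers.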

Additional observations from a re-analysis of the deposited data

Results flagged for a closer look

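Gpnmb and Ctsd are given here because their differences with MSC had opposite signs in heart and blood in every library under the deposited scaling. Gpnmb was higher in all 3 MI + MSC libraries than in all 3 MI libraries and lower in both Blood + MSC libraries than in both Blood libraries, with a difference between the log2 fold changes of 2.12 ± 0.74 (SE). The interaction of limma did not pass for it (adjusted p = 0.63). Ctsd had the same pattern, with a difference of 1.38 ± 0.74 (adjusted p = 0.63). In blood, Gpnmb had 49.5 and 48.7 normalized counts without MSC and 44.4 and 20.7 with MSC, where a single read equals 7.07 normalized counts in Blood 21. The pattern depended on the scaling. With TMM, Ctsd in blood was 1947 and 2229 without MSC and 2655 and 2481 with it, so its sign turned, and Gpnmb was 30.8 and 45.9 against 53.8 and 25.4, which overlap. With library size scaling both genes overlapped in blood. Gpnmb in MI and MI + MSC overlapped as well under both. Groups of 2 or 3 libraries were too small to be searched for single outlying libraries.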

How the results depend on the processing

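The direction of every called gene was the same under all alternatives run. In cardiac against blood libraries, 9 higher genes became 5 with TMM and 14 with library size scaling, and 5 to 13 with a library left out, the 5 without Blood + MSC 23, while the lower genes stayed within 5 to 7. In MI against Blood, 5 higher became 3 with TMM scaling, 8 with library size scaling and 4 to 8 with a library left out (8 without MI 13). There, 5 lower became 3 in a fit of only these groups, and 3 to 6 with a library left out (3 without Blood 22). In MI + MSC against Blood + MSC, 8 higher became 3 with TMM scaling, 14 with DESeq2, 13 in a fit of only these groups, 14 without the shallowest library of each tissue and 2 to 12 with a library left out (4 without MI + MSC 15 or Blood + MSC 24, 3 without MI + MSC 18, 2 without Blood + MSC 23). The 2 lower genes became 5 with edgeR, with DESeq2 and in a fit of only these groups, 7 without the shallowest libraries and 0 to 5 with a library left out (0 without Blood + MSC 23, 5 without MI 13). In MI + MSC against MI, 0 lower became 1 with DESeq2 (Lyve1). In Blood + MSC against Blood, 0 higher became 0 to 2 with a library left out (2 without Blood 22, Cx3cr1 and Mgl2, in a fit that called 1107 of all genes higher), and the interaction 0 to 1 (Cx3cr1 without Blood 22, where 247 of all genes were called higher and 839 lower). The cause of these changes was not tested. No paired analysis was possible because the groups share no replicate numbers and the labels do not tie heart and blood libraries to one mouse. Where a library left out leaves 1 sample in a group, that sample is assumed to vary like the others. Depth limits low genes most, since 3 reads equal 25.2 normalized counts in MI 13 and 21.2 in Blood 21.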
